A study of Mus musculus with 4 samples.

Results

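The nuclear genes of the mitochondrial respiratory chain, the ATP synthase and the mitochondrial protein import machinery were followed in feeder fibroblasts exposed to FGF2. Members were taken by symbol, namely symbols starting with Nduf, Sdha to Sdhd, Uqcr, Atp5, Tomm or Timm, or with Cox and a number. Of 8127 genes that could be named from the probe identifiers, 71 met this rule, with 82 of the 46116 probes on the array. One of them, Ndufs5-ps, is annotated as a pseudogene and was counted apart, which left 70 genes. The annotation holds 136 such symbols that are not marked as pseudogenes, so a gene without a named probe was not measured here. No annotation of the array was used, so each symbol rests on reading the digits in a probe's identifier as an NCBI gene number (RefSeq, GRCm38.p6).

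All samples were mouse embryonic fibroblasts of the CF1 strain, grown in medium with FCS and inactivated with mitomycin C so that they no longer divide. They were replated at a density of 55000 per square centimetre on a gelatine coat and then kept for 24 h in serum replacement medium for human embryonic stem cells, the cells that such fibroblasts support as a feeder layer. The 3 control arrays held biological replicates without FGF2, and 1 array each held cells given 4, 13 or 40 ng/ml of FGF2. Every dose therefore rested on a single array, and no source used here says whether arrays shared a slide.

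The respiratory chain passes electrons from NADH and succinate to oxygen through complexes I to IV and pumps protons across the inner mitochondrial membrane. The ATP synthase uses the proton gradient to make ATP. Most subunits are made in the cytosol and enter through the TOM complex of the outer membrane and the TIM complexes of the inner membrane, helped by small chaperones in the space between the membranes. A few core subunits are encoded by mitochondrial DNA and are not among the genes described.

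The 6 arrays had median signals of 102.5 to 113.6 and between 11195 and 11698 probes with a detection score of at least 0.99. Of 12 fibroblast markers 5 had a named probe, and all 5 (Col1a1, Col1a2, Col3a1, S100a4 and Dcn) were detected on every array. The summed signal of these 5 was 31870 to 38760 on the controls and 19260 to 23100 with FGF2. Col1a1, Col1a2 and Col3a1 were lower with FGF2 (log2 changes of -2.12, -2.31 and -1.48). S100a4 and Dcn had log2 changes of -0.03 and 0.19, and neither passed the test described below. None of the named probes for endothelial (1), pluripotent (4), striated muscle (1) or adipocyte (1) markers was detected on any array. Of 5 immune markers only Lyz2 was detected, with a list sum of 883.4 to 954.8 on the controls and 703.6 to 778.4 with FGF2, while Ptprc was undetected. Of 4 epithelial markers Cldn4 was detected on all 3 controls and 2 FGF2 arrays and Krt18 on the 3 FGF2 arrays alone, Krt8 and Krt19 on none, and the list sum was 494.4 to 544.1 on the controls and 566.5 to 584.9 with FGF2. The part of these shifts in the results below was not tested, and in bulk RNA fewer cells of a type cannot be told apart from less RNA per cell.

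Of the respiratory chain and ATP synthase genes 9 fell and 2 rose with FGF2, and of the import genes 5 rose. Of the 70 genes, 64 passed the filter on dim probes, which asked for detection on at least 3 of the 6 arrays, and 61 were detected on every array. The other 6 (Ndufab1, Ndufaf6, Sdha, Cox17, Timm23 and Timm29) were undetected on all 6. With the 3 FGF2 arrays set against the 3 controls in limma, 7 members rose and 9 fell at an adjusted p under 0.05. These 16 of 64 compare with 36.8% of all 11763 probes tested (18.4% higher and 18.3% lower). At an unadjusted p under 0.05 there were 26 members, against 47% of all probes. In 11 members all 3 FGF2 arrays lay above all 3 controls, against 27.5% of probes, and in 14 they lay below, against 25.6%. The median log2 change was -0.03 over the members and 0.005 over all tested probes, and 48 of the 64 members lay within 0.2 of 0, as did 65.6% of all probes. The median size of the change without regard to sign was 0.12 for members and 0.11 for all probes.

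Of 53 chain and ATP synthase genes 2 rose, against 18.4% of all probes, and 9 fell, against 18.3%, a share of lower calls near the background. Their median log2 change was -0.05 with neqc. The sign of small changes among them depended on the processing. Some chain genes, among them the complex I subunits Ndufs3 and Ndufs4, were lower with neqc but higher at every dose in the authors' deposited table. Others kept their sign. Of 11 import genes, 5 rose and 0 fell, and the median was 0.13. Tomm40 counted as tested only through its 3 FGF2 arrays, and no difference between the chain and the import genes was tested. The import count was 3 without control replicate 2 (12.4% of all probes higher), 3 without the 13 ng/ml array (12.2%) and 2 without the 40 ng/ml array (10.8%). Without control replicate 2, 1 import gene was called lower (14% of all probes). The chain count was 1 higher and 5 lower without control replicate 1 (11.4% and 12.8% of all probes), and 2 higher and 4 lower without the 40 ng/ml array (10.8% and 11.5%). It was 1 higher without control replicate 3 (12.8%) and 1 higher without the 13 ng/ml array (12.2%). All members together gave 8 calls without the 40 ng/ml array.

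**Figure D1:**
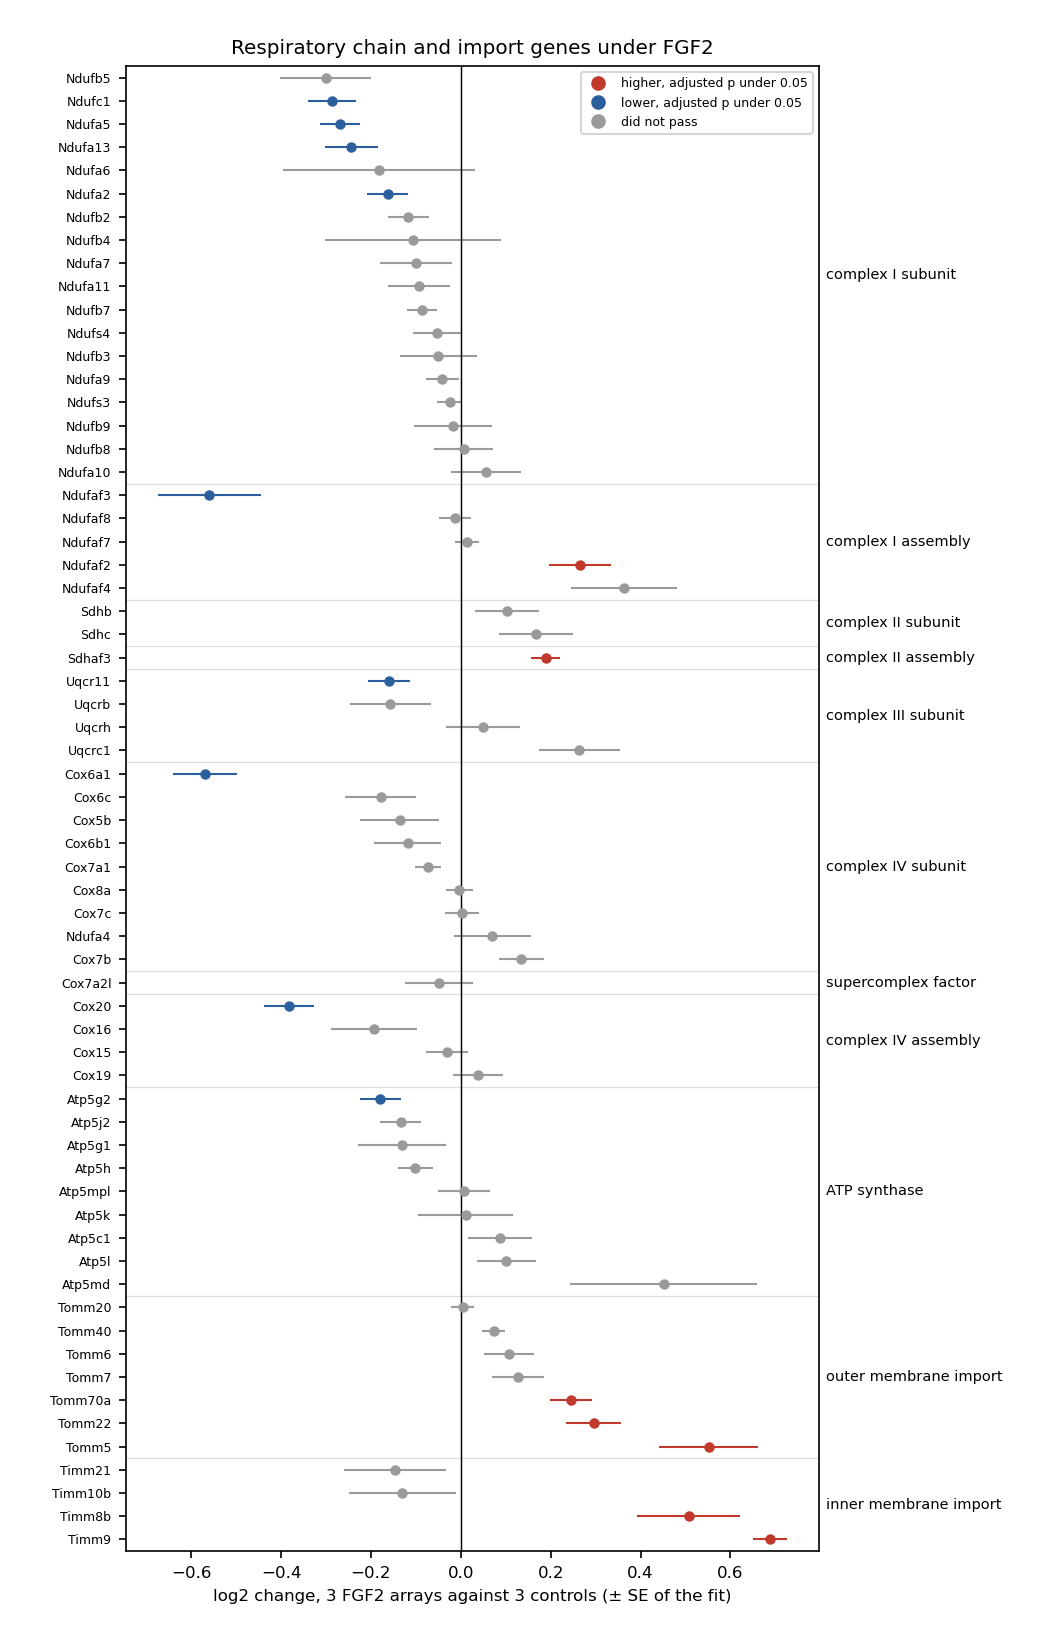
Log2 change of each of the 64 tested members, 3 FGF2 arrays against 3 controls, with bars for the standard error of the limma fit, grouped by complex or machinery. Red and blue points passed the adjusted threshold. Red points lie mostly among the import genes at the bottom, and complex I subunits lie mostly left of 0 with neqc, the processing shown.

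Among the import genes, the largest change was that of Timm9, one of the small chaperones that escort membrane proteins across the intermembrane space. Its normalised log2 signals were 9.05, 9.09 and 9.04 on the controls and 9.69, 9.74 and 9.81 at 4, 13 and 40 ng/ml. All 3 FGF2 arrays lay above all 3 controls. The rise was 1.61-fold (log2 0.69 ± 0.04, SE of the fit, n = 3 per side in this and the following comparisons, adjusted p = 0.000442 in limma). It passed under every alternative that tested it. Timm8b, a related small chaperone, read 11.22, 11.07 and 10.85 on the controls and 11.40, 11.62 and 11.65 with rising dose. Its FGF2 values also lay above every control, and the rise was 1.42-fold (log2 0.51 ± 0.12, adjusted p = 0.0209 in limma). This call ended without control replicate 2, without the 13 or the 40 ng/ml array, and without the filter on dim probes (adjusted p up to 0.0741).

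Of the outer membrane import genes, Tomm5, Tomm22 and Tomm70a rose. Tomm5, a small subunit of the TOM complex, read 10.83, 10.52 and 10.45 on the controls and 11.07, 11.14 and 11.25 with rising dose, a rise of 1.47-fold (log2 0.55 ± 0.11, adjusted p = 0.0139 in limma). The groups did not overlap, although the controls of Tomm5 spread more (SD 0.20) than those of Timm9 (SD 0.025). The call ended when control replicate 2 or the highest dose was left out (adjusted p up to 0.0535). Tomm22, the central receptor that organises the complex, read 8.49, 8.43 and 8.29 on the controls and 8.66, 8.76 and 8.68 with FGF2. It rose 1.23-fold (log2 0.30 ± 0.06, adjusted p = 0.0155 in limma), and the call ended when either of the 2 higher doses was left out (adjusted p up to 0.0511). Tomm70a, the receptor for carrier proteins, read 7.37, 7.48 and 7.35 on the controls and 7.59, 7.65 and 7.69 with FGF2. It rose 1.19-fold with neqc (log2 0.25 ± 0.05, adjusted p = 0.0119 in limma). Its signal is near the detection limit, and the log2 change was 0.63 with normexp at an offset of 50 and 0.96 in the authors' deposited table.

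With the main settings, the channel and the other import genes did not pass or were not detected. Tomm40, which forms the outer membrane pore, was below detection on each of the 3 controls but not on any FGF2 array, and was at least 1.03-fold higher with FGF2. It did not pass (adjusted p = 0.0676 in limma), and it met the filter only through the arrays where it was higher. Tomm40 did pass in 5 alternatives. These were no further background correction, normexp at both offsets, no filter on dim probes, and a trended robust prior. Its log2 change was 0.07 with neqc and reached 0.53 among the alternatives. Tomm20, a receptor for presequences, was detected on 2 controls and 1 FGF2 array, with a log2 change of 0.004 ± 0.025. The small subunits Tomm6 and Tomm7 had log2 changes of 0.11 and 0.13 (adjusted p = 0.193 and 0.146 in limma). Tomm6 is near the detection limit. In the authors' deposited table its log2 changes were 0.006, 0.62 and 0.48 at 4, 13 and 40 ng/ml, and those of Tomm7 were 0.10, 0.26 and 0.30. In the inner membrane, Timm10b had a log2 change of -0.13 ± 0.12 (adjusted p = 0.443). Timm21, which has 3 tested probes, had log2 changes of -0.15, -0.06 and 0.01, none of which passed.

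**Figure D2:**
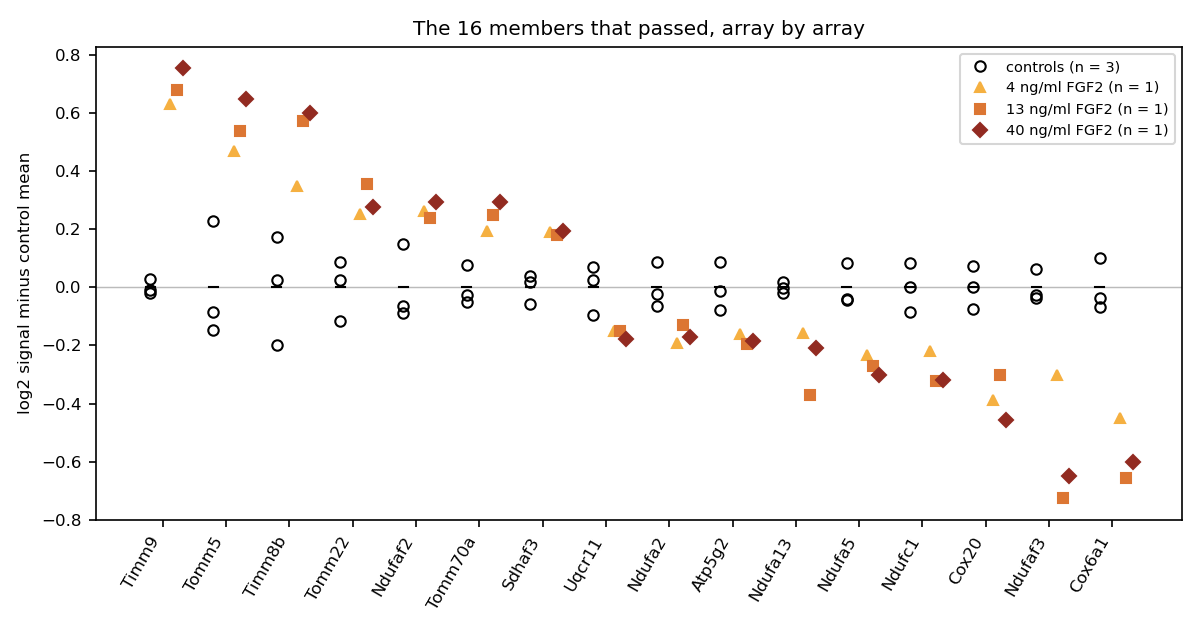
Normalised log2 signal minus the control mean for each array (vertical axis) and each of the 16 members that passed (horizontal axis). Open circles are the 3 controls and filled symbols the single arrays at 4, 13 and 40 ng/ml. For all 16 members the 3 FGF2 values lie on 1 side of all 3 controls, which selection by these same arrays favours.

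Among complex I subunits, the entry point for electrons from NADH, 4 of 18 tested genes fell, near the 18.3% of all probes called lower, and 0 rose. The median log2 change of the 18 was -0.10 with neqc. All 4 that fell encode accessory subunits, as do nearly all of the 18 tested genes, so core subunits were hardly measured. Ndufc1 fell 1.22-fold, from log2 signals of 11.08, 10.99 and 10.91 on the controls to 10.77, 10.67 and 10.68 with rising dose (log2 -0.29 ± 0.05, adjusted p = 0.0117 in limma). Ndufa5 fell 1.21-fold, from 11.43, 11.30 and 11.31 to 11.11, 11.08 and 11.05 (log2 -0.27 ± 0.04, adjusted p = 0.00777 in limma). In both genes every FGF2 array lay below every control, and both calls held in every alternative that tested them. In the authors' deposited table the log2 changes were smaller, -0.16 for Ndufc1, -0.14 for Ndufa5 and -0.14 for Ndufa13. Ndufa13, also known as a cell death regulator, fell 1.18-fold (log2 -0.24 ± 0.06, adjusted p = 0.0252 in limma). Its call ended without any 1 of the 3 controls, without the 40 ng/ml array, without the filter, and with normexp at an offset of 16 (adjusted p up to 0.0824). Ndufa2 had a log2 change of -0.16 ± 0.05 (adjusted p = 0.0401). The subunit with the smallest change was Ndufb8, with a log2 change of 0.006 ± 0.07. The probe read as the pseudogene Ndufs5-ps differed by -0.05 on the log2 scale (adjusted p = 0.636). Whether it measured its parent gene was not tested.

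Assembly factors of complex I went both ways. Ndufaf3 fell 1.47-fold, from log2 signals of 10.12, 10.23 and 10.14 on the controls to 9.86, 9.44 and 9.51 with rising dose (log2 -0.56 ± 0.12, adjusted p = 0.0154 in limma). Its 3 FGF2 values lay below every control, and the call ended when control replicate 2 or the highest dose was left out (adjusted p up to 0.0568). Ndufaf4, known to act together with Ndufaf3 early in assembly, read 7.68, 7.62 and 7.81 on the controls and 7.81, 8.20 and 8.19 with FGF2. It did not pass over all doses (log2 0.36 ± 0.12, adjusted p = 0.0613 in limma). It passed with normexp at both offsets (log2 0.51 and 0.56), without further background correction (0.46), with a trended robust prior and without the 4 ng/ml array. Ndufaf2, a chaperone of a late assembly intermediate, rose 1.20-fold (log2 0.27 ± 0.07, adjusted p = 0.0306). That call ended in 9 alternatives, including without control replicate 1 or 3 and without any 1 FGF2 array (adjusted p up to 0.104). Ndufaf7 and Ndufaf8 had log2 changes of 0.01 and -0.01.

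Complexes II and III, which take electrons from succinate and hand them to cytochrome c, had 7 tested genes including an assembly factor. Of these 1 rose, against 18.4% of all probes, and 1 fell, against 18.3%. Sdhb, the iron-sulfur subunit of succinate dehydrogenase, had a log2 change of 0.10 ± 0.07, and Sdhc, a membrane anchor, of 0.17 ± 0.08, and neither passed. The assembly factor Sdhaf3 rose 1.14-fold, from log2 signals of 7.56, 7.46 and 7.54 to 7.71, 7.70 and 7.71 (log2 0.19 ± 0.03, adjusted p = 0.00881 in limma). This gene is near the detection limit too, and its log2 change was 0.40 with normexp at an offset of 50 and 0.59 in the authors' deposited table. Of 4 complex III genes, Uqcr11, a small subunit, fell 1.12-fold (log2 -0.16 ± 0.05, adjusted p = 0.0468). That call ended in 11 of the alternatives, including normexp at both offsets, uncorrected signals, and leaving out control replicate 1 or 2 or any 1 FGF2 array (adjusted p up to 0.19). In the authors' deposited table the log2 change of Uqcr11 was -0.02. The core subunit Uqcrc1 had a log2 change of 0.26 ± 0.09 (adjusted p = 0.0718), with all 3 FGF2 arrays above the controls. The hinge protein gene Uqcrh had a log2 change of 0.05.

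In complex IV, cytochrome c oxidase, Cox6a1 was the only 1 of 9 tested subunits that passed with the main settings. This is 11.1%, against 36.8% of all probes tested. Cox6a1 is the widely expressed form of a subunit that also exists in a heart and muscle form. Its log2 signals were 13.20, 13.16 and 13.33 on the controls and 12.78, 12.57 and 12.63 at 4, 13 and 40 ng/ml, so the groups were well apart. The fall was 1.48-fold (log2 -0.57 ± 0.07, adjusted p = 0.00333 in limma). A second probe of Cox6a1 fell by 0.50 ± 0.07 on the log2 scale (adjusted p = 0.00383), and the call held in every alternative that tested it. Of the other subunits, Cox6c had a log2 change of -0.18 ± 0.08 (adjusted p = 0.135). Cox6c passed as lower when the 13 ng/ml array was left out. Cox7c and Cox8a had log2 changes of 0.003 ± 0.04 and -0.003 ± 0.03, and Cox6b1, Cox5b and Ndufa4 of -0.12, -0.14 and 0.07. Ndufa4 carries a complex I name but is known as a complex IV subunit. Cox7a1, the muscle form of subunit 7a, was detected on 3 controls and 1 FGF2 array. It did not pass (adjusted p = 0.0993 in limma), and it met the filter through the controls, where it was higher. Cox7a1 did pass as lower in 4 alternatives, namely no further background correction, normexp at both offsets, and a trended robust prior. Its log2 change was -0.07 with neqc and reached -0.44 among the alternatives. Cox7a2l, which helps complexes III and IV join into supercomplexes, had a log2 change of -0.05.

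Among complex IV assembly genes, Cox20, a chaperone of the mitochondrially encoded subunit Cox2, fell 1.30-fold. Its log2 signals went from 9.61, 9.75 and 9.68 on the controls to 9.29, 9.38 and 9.22 with rising dose (log2 -0.38 ± 0.06, adjusted p = 0.00559 in limma), and the call held in every alternative that tested it. In the authors' deposited table the log2 change of Cox20 was -0.23. Cox15, of haem a synthesis, and Cox19, of copper delivery, had log2 changes of -0.03 and 0.04. Cox16 had a log2 change of -0.19 ± 0.10 (adjusted p = 0.175).

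Of 9 ATP synthase genes 1 passed (11.1%), against 36.8% of all probes tested. Atp5g2, one of the genes for the membrane ring subunit c, fell 1.13-fold (log2 -0.18 ± 0.05, adjusted p = 0.0305 in limma). That call ended in 10 alternatives, including normexp at both offsets, uncorrected signals, scaling to a common median, and leaving out control replicate 1 or 3 or either higher dose (adjusted p up to 0.218). In the authors' deposited table the log2 change of Atp5g2 was -0.08. Atp5g1, which encodes the same mature subunit, had a log2 change of -0.13 ± 0.10 (adjusted p = 0.342). Atp5md read 8.50, 8.50 and 8.17 on the controls and 8.78, 9.25 and 8.50 with rising dose, so the arrays at 4 and 13 ng/ml lay above every control and the one at 40 ng/ml among them. Over all doses its log2 change was 0.45 ± 0.21 (adjusted p = 0.146). Atp5mpl had a log2 change of 0.007.

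Across members with more than 1 tested probe, the probes gave the same call for 6 of 6 genes. Only the probes of Cox6a1 passed, and for the other genes the shared call was that none passed. The sign was the same for 3 of the 6 (Cox6a1, Cox6b1 and Ndufs4), and the other 3 were genes whose probes did not pass.

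Single doses were compared with the controls next, with the single treated array assumed to vary like the controls and the controls shared by all 3 comparisons. At 4 ng/ml 5 of 64 members passed (2 higher, 3 lower), against 13.8% of all probes (7.29% higher, 6.55% lower). At 13 ng/ml 7 passed (4 higher, 3 lower), against 25.6% (13.3% higher, 12.4% lower). At 40 ng/ml 8 passed (2 higher, 6 lower), against 24.8% (13% higher, 11.8% lower). Leaving out control replicate 1 gave 0, 3 and 3 members. At 4 ng/ml it was 1 member when control replicate 2 was left out and 2 when replicate 3 was, and at 13 ng/ml it was 12 without control replicate 3. Timm9 and Cox6a1 were the 2 members that passed at all 3 doses. The log2 changes of Timm9 were 0.63, 0.68 and 0.75 with rising dose (adjusted p = 0.0073, 0.00334 and 0.00267 in limma), and those of Cox6a1 were -0.45, -0.66 and -0.60 (0.0498, 0.0151 and 0.0185).

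For 16 of the 16 members that passed over all doses, the change had the same sign at each dose. These members were picked by the same arrays, so this follows largely from the selection and does not show replication. The share among all probes that passed was not computed. Of the 5 import genes that rose, 4 had their largest change at 40 ng/ml, Tomm22 being the exception. The margins could be small, as for Timm8b with log2 changes of 0.57 at 13 ng/ml and 0.60 at 40 ng/ml. With 1 array per dose and genes picked by these arrays, this does not show a trend with dose. The slope per log2 of dose among the FGF2 arrays passed for 0 of 64 members in limma, and for 0% of all probes. At an unadjusted p under 0.05 it was 4 members, against 10.5% of all probes. The median member changes were -0.02, -0.04 and -0.03 at 4, 13 and 40 ng/ml, and those of the import genes 0.06, 0.18 and 0.19.

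The members that follow passed against the controls at 1 or more doses but not over all doses. Ndufaf4 was higher at 13 and 40 ng/ml (log2 0.49 and 0.49, adjusted p = 0.0312 and 0.0331 in limma). Atp5md was higher at 13 ng/ml (log2 0.86, adjusted p = 0.0356), and Ndufb5, a membrane arm subunit of complex I, was lower at 40 ng/ml (log2 -0.49, adjusted p = 0.0391). Cox6c was lower at 4 and 40 ng/ml (log2 -0.29 and -0.25) but not at 13 ng/ml (-0.002). Ndufa10 was higher at 4 ng/ml alone (log2 0.23, adjusted p = 0.0429), where the other doses gave -0.04 and -0.02. Cox7b, a small complex IV subunit, was higher at 13 ng/ml (log2 0.20 with neqc). In the authors' deposited table its log2 changes were 0.48, 0.59 and 0.105 at 4, 13 and 40 ng/ml. Each of these single-dose calls ended when control replicate 1 was left out and when control replicate 2 was (adjusted p up to 0.158).

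The promoters of these genes were read from RefSeq on GRCm38.p6, since recognition sites of the factors NRF1, GABPA (of the ETS family) and YY1 are known from many nuclear genes of mitochondrial proteins. Of the 70 genes 60 had a listed promoter, running from 250 bases before the transcription start to 50 after it. The letters GCGCA and GCGC separated by any 1 base (NRF1 core), CCGGAAG (ETS core) and AAGATGGC (YY1 core) were searched on both strands. The NRF1 core was found in 14 of 60 member promoters (23.3%), against 4.78% of all 27025 promoters and 6.6% of those of protein-coding genes. The ETS core was found in 23 (38.3%), against 9.12% and 11.9%, and the YY1 core in 7 (11.7%), against 2.88% and 3.22%. Of the promoters of members that rose 4 of 7 held at least 1 of these cores, of those that fell 6 of 8, and of those that did not pass 24 of 41. The 5 members that passed with a log2 change beyond 0.5 are shown with the 250 bases before the start, 5′ to 3′ on the gene's strand, with the cores in capitals.
Timm9, chr12:71136676-71136925, minus strand: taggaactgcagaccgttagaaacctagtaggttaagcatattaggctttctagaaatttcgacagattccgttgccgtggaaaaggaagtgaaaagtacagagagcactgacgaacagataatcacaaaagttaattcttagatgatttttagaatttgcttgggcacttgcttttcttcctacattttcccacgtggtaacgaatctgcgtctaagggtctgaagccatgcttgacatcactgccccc
Tomm5, chr4:45108114-45108363, minus strand: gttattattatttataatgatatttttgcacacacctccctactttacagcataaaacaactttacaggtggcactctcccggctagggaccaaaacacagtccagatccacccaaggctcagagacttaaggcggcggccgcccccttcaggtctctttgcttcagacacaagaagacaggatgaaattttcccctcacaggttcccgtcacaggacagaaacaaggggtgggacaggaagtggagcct
Timm8b, chr9:50603651-50603900, plus strand: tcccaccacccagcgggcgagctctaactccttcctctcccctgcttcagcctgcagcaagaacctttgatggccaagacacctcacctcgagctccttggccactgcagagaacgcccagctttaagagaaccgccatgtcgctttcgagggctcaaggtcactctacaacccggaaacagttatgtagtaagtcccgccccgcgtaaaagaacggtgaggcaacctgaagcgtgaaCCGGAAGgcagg
Ndufaf3, chr9:108567437-108567686, minus strand: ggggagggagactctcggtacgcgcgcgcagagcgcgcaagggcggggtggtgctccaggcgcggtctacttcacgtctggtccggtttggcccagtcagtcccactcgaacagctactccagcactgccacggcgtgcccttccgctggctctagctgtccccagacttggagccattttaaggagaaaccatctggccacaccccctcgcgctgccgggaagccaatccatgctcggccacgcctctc
Cox6a1, chr5:115348959-115349208, minus strand: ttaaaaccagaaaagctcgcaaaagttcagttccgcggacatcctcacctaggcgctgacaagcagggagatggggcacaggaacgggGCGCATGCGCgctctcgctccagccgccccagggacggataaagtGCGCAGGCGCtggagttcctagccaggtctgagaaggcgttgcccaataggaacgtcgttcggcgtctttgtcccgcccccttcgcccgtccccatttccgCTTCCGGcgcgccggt
The Cox6a1 promoter held 2 NRF1 cores, 162 to 153 and 117 to 108 bases before the start, and an ETS core on the other strand at 16 to 10 bases. The Timm8b promoter held an ETS core at 12 to 6 bases before the start and an NRF1 core that reaches past the start. None of the 3 cores was found in the Timm9, Tomm5 and Ndufaf3 windows. A match of letters does not show that a factor binds there.

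Other genes of mitochondria were described by lists that do not contain the members. Their counts stand against 18.4% of all probes called higher and 18.3% called lower, and most lists have few tested genes. The import partners, which pull, cleave and fold imported proteins, had 7 tested genes, of which 3 rose and 0 fell. The matrix chaperone and import motor Hspa9 read 9.66, 9.37 and 9.42 on the controls and 10.29, 10.65 and 10.52 with rising dose. Its FGF2 values lay well above the controls, a 2.0-fold rise (log2 1.0 ± 0.12, adjusted p = 0.00288 in limma). The folding chaperone Hspd1 rose 1.89-fold (log2 0.92 ± 0.12) and Pmpca, a subunit of the peptidase that removes presequences, 1.47-fold (log2 0.55 ± 0.07). Calls of these 3 genes held in every alternative, although the log2 change of Pmpca was 0.28 (0.275) when a gene's probes were averaged. Hspe1, the partner of Hspd1, did not pass (log2 0.40, adjusted p = 0.0866). The list median was 0.40.

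In the list of cytochrome c and chain assembly genes, 2 of 7 rose and 1 fell. Cycs, the mobile carrier cytochrome c, read 9.22, 9.34 and 9.17 on the controls and 10.12, 10.35 and 10.33 with FGF2, a 2.03-fold rise (log2 1.02 ± 0.08, adjusted p = 0.000967 in limma). Cyc1, the cytochrome subunit of complex III, whose symbol falls outside the rule for members, rose 1.56-fold (log2 0.64 ± 0.08, adjusted p = 0.00324). Both calls held in every alternative. Etfa, a subunit of the flavoprotein that feeds electrons from fatty acid oxidation, fell 1.18-fold (log2 -0.23 ± 0.04). Its call ended with normexp at an offset of 16 (adjusted p = 0.0665).

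Of 5 tested genes of the tricarboxylic acid cycle 3 rose, namely Dlst (1.78-fold), Idh3b (1.41-fold) and Mdh2 (1.38-fold). Their adjusted p values were 0.021, 0.0292 and 0.0191, and each call ended in at least 4 alternatives, among them leaving out the highest dose (adjusted p up to 0.0998). Of 32 mitochondrial ribosomal protein genes 9 rose, against 18.4% of all probes, and 1 fell, against 18.3%, with a median log2 change of 0.08. Mrps6 read 10.25, 9.87 and 10.18 on the controls and 11.18, 11.51 and 11.51 with rising dose, a 2.47-fold rise (log2 1.30 ± 0.14, adjusted p = 0.00207 in limma). Mrps10 rose 1.89-fold (log2 0.92 ± 0.07). Mrpl22 rose 1.32-fold, a call that ended in 6 alternatives (adjusted p up to 0.0897). Of 5 carrier genes the adenine nucleotide translocator Slc25a5 rose 1.38-fold (log2 0.47 ± 0.13, adjusted p = 0.0389), a call that ended in 7 alternatives (up to 0.121). Of 4 further complex I factors 0 passed in limma, and the largest change among them was that of Acad9 (log2 -0.08).

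Among regulators of mitochondrial biogenesis, 8 of 18 had a named probe and 4 were tested. Gabpa and Gabpb1, the subunits of the ETS factor whose core was searched above, rose by 0.08 ± 0.02 and 0.10 ± 0.03 on the log2 scale (adjusted p = 0.0444 and 0.0388 in limma). Gabpa was detected on 2 controls and all 3 FGF2 arrays. Both are near the detection limit, with log2 changes of 0.37 and 0.31 with normexp at an offset of 50. Each call ended in 7 alternatives, including without any 1 control, when either higher dose was left out, and with arrays scaled to 1 common median (adjusted p up to 0.17). Ssbp1, which coats single-stranded mitochondrial DNA, had a log2 change of 0.35 (adjusted p = 0.0587).

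**Figure D3:**
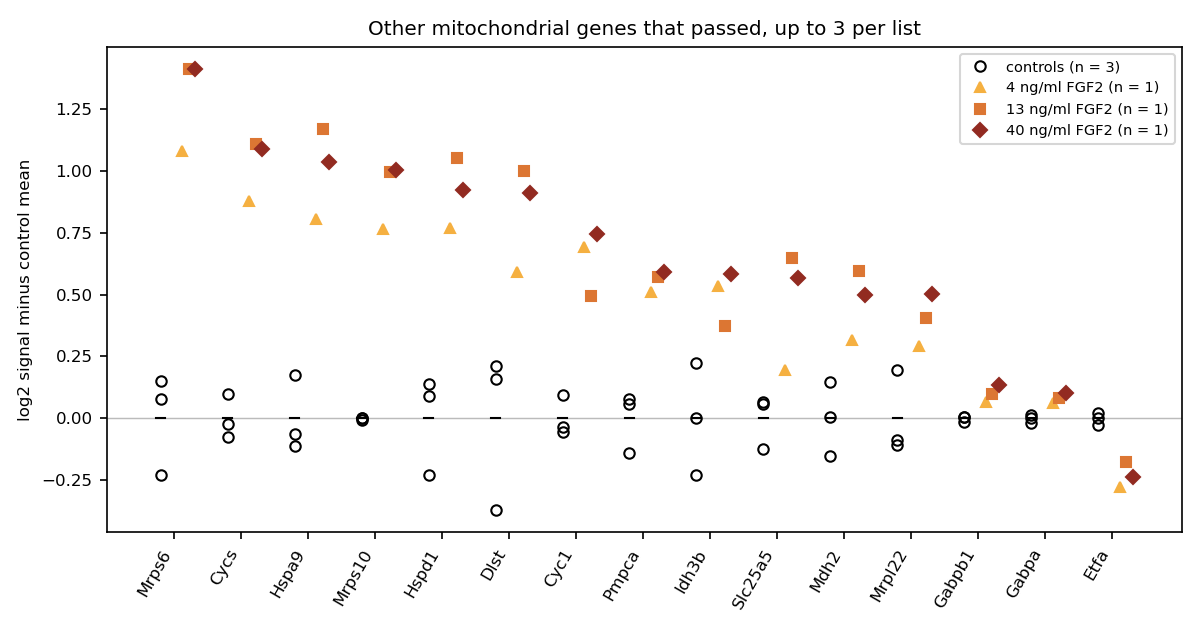
Normalised log2 signal minus the control mean for each array (vertical axis) and up to 3 called genes of each list outside the members (horizontal axis), with symbols as for the called members. Mrps6, Cycs, Hspa9, Mrps10 and Hspd1 lie highest, and Etfa is the only gene shown that fell.

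**Figure D4:**
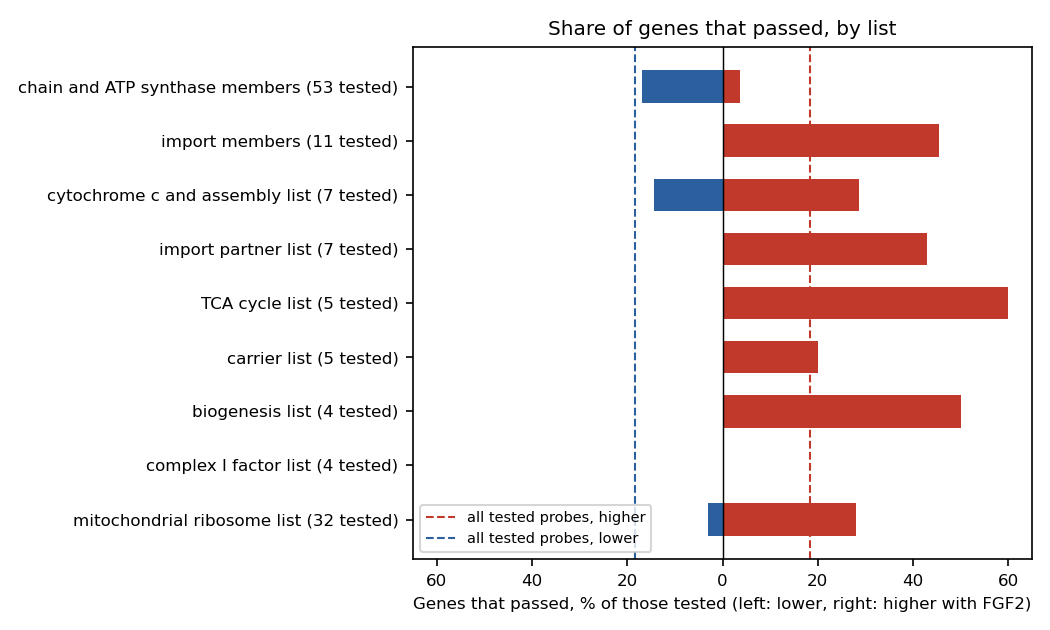
Share of tested genes that passed, in percent, for the chain and import members and 7 other mitochondrial lists. Bars to the right are genes higher with FGF2 and bars to the left genes that were lower, and dashed lines mark the shares over all tested probes (18.4% and 18.3%).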

How the data were processed

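Members, lists and tests were chosen with earlier results of these data known. Each array file deposited by the authors gives a mean signal per probe, a linear intensity made with BeadStudio 1.0, per the submitters' processing notes. Array medians differ and no value is near 0, so background and scale were taken as uncorrected. Per the file headers a detection score stands beside it, a fraction from 0 to 1, read here as the rank of the signal among negative controls. The authors' deposited value table, an intensity too, was used only as an alternative: each column is a straight line of the array signals (r = 1), with column medians of 254.9 to 284.5. Per the labels its control column is a mean over the replicates. The sources used here do not give its background or scaling constants.

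Signals were corrected with neqc in limma 3.58.1 (R 4.3.3, offset 16), quantile-normalised and taken to log2. The mean and spread of the negative control probes were inferred from the detection scores. Their inferred standard deviation was 224.1 to 262.8, above the lowest detected signals of 142.4 to 160.3. Log2 changes of several dim genes, such as Tomm70a, Sdhaf3 and Ndufaf4, were smaller with neqc than in the authors' deposited table. Whether this inferred spread shrinks them was not tested. Tests were two-sided limma fits over 11763 probes (score of at least 0.99 on at least 3 arrays) with Benjamini-Hochberg adjustment over all of them and a threshold of 0.05. The fits over all doses and of the slope were checked on simulated data with independent noise. Far fewer probes were changed there than passed over all doses, and the single-dose fits were not checked. A gene with several probes was represented by the one with the highest mean. Nothing says that the FGF2 arrays are replicates of one another beyond sharing the factor, so dose differences count as spread. The number of arrays limits the precision. Probe sequences were not used here.

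Named genes are, per complex or machinery, up to 3 called members of largest change in each direction and the tested member of smallest change. Named too are members called at 1 or more doses but not over all doses (up to 5). Members detected on 1 side only, isoform groups, and up to 3 called genes of each further list were also named. Ndufa2, Ndufaf7, Cox16, Cox19, Tomm6, Tomm7, Timm21, Sdhc, Uqcrc1, Cox5b, Cox7b, Atp5k, Hspe1, Acad9 and Ssbp1 were added after their values were seen. Alternatives were other background corrections and offsets, scaling to the same median, other filters, a trended robust prior, the mean of a gene's probes, identifiers with 1 leading zero, and leaving out each array.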

Additional observations from a re-analysis of the deposited data

Results flagged for a closer look

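In 5 members 1 FGF2 array lay above all 3 controls while another lay below all 3. The share of all probes with such a split was not computed, so the count cannot be read as a trait of the members. Each dose is a single array, so these differences between doses were not tested as such. Ndufb8 was above the controls at 4 ng/ml, by 0.22 on the log2 scale more than at 13 ng/ml and 0.20 more than at 40 ng/ml. For Ndufa10 the 4 ng/ml array exceeded the 13 ng/ml array by 0.28, and for Cox8a by 0.09 (0.085). Atp5k was highest at 13 ng/ml, by 0.35 over 4 ng/ml and 0.34 over 40 ng/ml. Tomm20, near the detection limit, differed by 0.05 (0.053) between 13 and 40 ng/ml. Of these, only Ndufa10 at 4 ng/ml passed against the controls in limma.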

How the results depend on the processing

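No named member or listed gene that passed changed its sign under any of the 17 alternatives that gave it a value. Counts by machinery and single-dose values under the alternatives were added after seeing the data. The 16 calls over all doses ranged from 8 to 20 when 1 array was left out, and were 10 with identifiers of 1 leading zero, which name fewer genes (46 tested). The import genes called higher ranged from 2 to 7 without 1 array, those called lower from 0 to 1, and 3 of 7 tested were higher with 1 leading zero. The chain genes called higher ranged from 1 to 2 and those called lower from 4 to 11 without 1 array. They were 5 higher without further background correction, 1 higher and 5 lower without the filter, and 5 lower with 1 leading zero. At 4 ng/ml the count was 3 with normexp at an offset of 16 and with neqc at an offset of 50, 0 with scaling to the same median, and 0 to 6 without 1 array. At 13 ng/ml it was 13 with uncorrected signals and with normexp at an offset of 50, 14 with normexp at an offset of 16 and with the trended robust prior, 3 with 1 leading zero and 3 to 12 without 1 array. At 40 ng/ml it was 13 in the first pair of these settings, 14 with the trended robust prior, 4 without the filter, 5 with 1 leading zero and 3 to 8 without 1 array. The slope gave 0 members in every setting. Of the calls over all doses, 7 were higher and 9 lower with neqc, against 11 and 7 with uncorrected signals, 9 and 7 with normexp at an offset of 50 or a trended robust prior, and 8 and 6 with normexp at an offset of 16. The cause was not tested. The median of all probes stayed within -0.02 and 0.02 of 0 for FGF2 against control. No paired analysis was possible because the doses have 1 array each and share no replicate numbers with the controls. Changes of members near the detection limit are limited by signal over background.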
